A study of Mus musculus with 30 samples.

Results

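Collagen chains are the protein subunits of collagens, and their genes were taken as every entry of the count table whose symbol consists of Col, a number, the letter a and a second number. This rule found 44 of 36103 genes. It reads the symbol alone, but it was set with earlier results of these data known. The libraries were poly(A)-selected RNA-seq libraries of whole gastrocnemius, diaphragm, heart and liver from male mice of 5 weeks, either Mtm1-/y knockouts or their wild-type (WT) littermates, all on a pure 129Pas background. The WT groups held 4 libraries each for gastrocnemius, diaphragm and heart and 3 for liver, and the Mtm1-/y groups held 4 each for gastrocnemius, heart and liver and 3 for diaphragm. Mtm1, the X-linked gene that encodes the lipid phosphatase myotubularin, is knocked out in every cell of these mice, so that an effect of a tissue's own cells cannot be told apart from an effect of the disease elsewhere in the body. The study asked how the loss of Mtm1 affects skeletal muscle, cardiac muscle and liver.

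Collagens are the main structural proteins of the extracellular matrix. Each chain carries a repeat in which glycine is the first residue of every triplet, and chains with this repeat wind around each other into a triple helix. Fibrillar collagens (types I, II, III, V, XI, XXIV and XXVII) build the fibres of tendon and of the connective tissue around muscle fibres, type IV forms the sheet of the basement membrane that wraps each muscle fibre and capillary, type VI forms beaded filaments next to that sheet, and FACIT collagens (fibril-associated collagens with interrupted triple helices, such as types XII and XIV) sit on the surface of fibrils. In muscle and heart these chains come mostly from fibroblasts, with endothelial and mural cells contributing type IV.

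The shared repeat can be read in the coding sequences of the annotation (GENCODE M21, mm10). A run of at least 10 successive triplets that start with a glycine codon was present in all 44 chains and in 54 of 21540 other coding genes (0.251%). The longest run had a median of 58.5 triplets and ranged from 23 in Col26a1 to 344 in Col3a1. Col1a1, Col1a2, Col5a1 and Col5a2, the other chains of major fibrils, had 338, 339, 338 and 339 triplets without a break, whereas the basement membrane chains Col4a1 and Col4a5 had at most 40 and 42 in a row and Col8a1 had 61. Of the internal coding exons of the 44 genes, 24.5% were exactly 54 bases long, a length that holds whole triplets, against 0.446% in other genes. To show the repeat in chains that the results below turn on, a window of 54 coding bases is printed for each. All windows are in mm10 and run 5′ to 3′ on the coding strand. The glycine codon that opens each triplet is in capitals, and glycine codons at other positions are in small letters. For Col3a1 the window is the whole of coding exon 6, chr1:45325360-45325413 (plus strand). For Col5a2 it lies in coding exon 10, chr1:45422386-45422439 (minus strand). For Col8a1 it lies in coding exon 2, which has 1904 coding bases, chr16:57628039-57628092 (minus strand). For Col4a5 it lies in coding exon 44, chrX:141666850-141666903 (plus strand). For Col14a1 it is coding exon 38, chr15:55472927-55472980 (plus strand). For Col18a1 it lies in coding exon 12, chr10:77077693-77077746 (minus strand).
Col3a1: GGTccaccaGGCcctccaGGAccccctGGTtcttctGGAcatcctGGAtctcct
Col5a2: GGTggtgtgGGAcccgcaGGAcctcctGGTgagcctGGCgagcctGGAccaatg
Col8a1: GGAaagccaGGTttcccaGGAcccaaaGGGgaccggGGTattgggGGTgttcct
Col4a5: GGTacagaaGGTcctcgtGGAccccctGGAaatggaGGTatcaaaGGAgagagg
Col14a1: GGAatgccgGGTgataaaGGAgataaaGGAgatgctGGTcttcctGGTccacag
Col18a1: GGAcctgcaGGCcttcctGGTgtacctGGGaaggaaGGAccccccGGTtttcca

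Promoter sequences from RefSeq (GRCm38.p6) were matched for 35 of the 44 chains, with 38 start sites, and 3 motifs were searched on both strands of the 250 bases upstream. GGGCGG, the GC box, occurred in 22 of 38 collagen promoters (57.9%) and in 32.7% of all 32851 promoters. CCAAT occurred in 13 (34.2%, against 33.8% of all) and TATAAA in 5 (13.2%, against 12.4%). The upstream bases of Col3a1 and Col8a1 are shown because both chains were higher in Mtm1-/y gastrocnemius and differ in these letters. Col3a1 (chr1:45311288-45311537, plus strand) holds a TATAAA, in capitals. Col8a1 (chr16:57754738-57754987, minus strand) holds 4 copies of CCGCCC, which is GGGCGG on the other strand, in capitals.
Col3a1: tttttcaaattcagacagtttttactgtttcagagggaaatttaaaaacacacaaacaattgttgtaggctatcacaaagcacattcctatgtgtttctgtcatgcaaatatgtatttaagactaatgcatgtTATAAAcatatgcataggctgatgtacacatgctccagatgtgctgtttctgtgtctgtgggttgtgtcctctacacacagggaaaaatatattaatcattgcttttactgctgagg
Col8a1: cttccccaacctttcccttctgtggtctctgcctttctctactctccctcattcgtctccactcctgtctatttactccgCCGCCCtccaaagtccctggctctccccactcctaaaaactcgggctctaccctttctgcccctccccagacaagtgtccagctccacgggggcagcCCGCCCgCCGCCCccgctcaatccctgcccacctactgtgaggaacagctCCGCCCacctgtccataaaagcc

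Several chain genes are neighbours in the genome (mm10). Col4a1 and Col4a2 start 21 bases apart on opposite strands of chromosome 8, and their annotated 5′ ends overlap. Col4a4 and Col4a3 start 72 bases apart on chromosome 1, and Col4a6 and Col4a5 start 1309 bases apart on the X chromosome. Col3a1 and Col5a2, which meet tail to tail on chromosome 1, are separated by 24614 bases.

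The libraries held between 24873817 and 44289343 assigned read counts. Mtm1 checked the genotype labels: its mean fell from 19.5 to 4.65 CPM in gastrocnemius, from 22.4 to 4.68 in diaphragm, from 27.1 to 4.51 in heart and from 15.4 to 5.10 in liver, and in each tissue the lowest WT library lay above the highest Mtm1-/y library. CPM is the read count scaled to a fixed library size, here after trimmed-mean (TMM) adjustment of the library sizes within a tissue. Tissue labels were checked with marker genes. Skeletal fibre markers (Acta1, Ckm, Myh4, Tnnt3) summed to at least 91467 CPM in every gastrocnemius library, cardiomyocyte markers to at least 25779 in every heart library and hepatocyte markers to at least 118063 in every liver library. Some libraries stood apart. In the diaphragm, hepatocyte markers (Alb, Apoa1, Ttr, Serpina1a, Fgb, Apob) summed to 34773, 22863, 407 and 25262 CPM in WT 1 to 4. In Mtm1-/y 1, 2 and 4 they summed to 2549, 44395 and 736 CPM. Skeletal fibre markers summed to 40708 to 59718 CPM beside them, so that these libraries held hepatocyte transcripts in very unequal amounts. In the heart, WT library 4 had the highest sums of fibroblast (2227 CPM) and mesothelial (354) markers.

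In WT muscles and heart the collagen chains took similar shares of the RNA, and the leading chain differed by tissue. They made up 0.397 to 0.924% of all counts in WT gastrocnemius, 0.375 to 0.703% in diaphragm, 0.457 to 0.708% in heart and 0.180 to 0.201% in liver. Levels of different genes were compared per transcript length, as TPM (transcripts scaled by exon length and by the library's total). In WT gastrocnemius Col1a1 led with 474 ± 372 TPM (SD, n = 4), followed by Col1a2 (309 ± 267), Col3a1 (230 ± 54.3) and Col4a1 (226 ± 64.4). The SDs of the type I chains were nearly as large as their means, and these leading chains were not separated from each other beyond that spread. In WT diaphragm Col3a1 led (418 ± 145 TPM, n = 4), and in WT heart Col4a1 led (434 ± 48.8 TPM, n = 4) before Col3a1 (316 ± 133) and Col4a2 (313 ± 23.5). In WT liver a single chain stood above all others. Col18a1, a multiplexin whose C-terminal fragment is endostatin, reached 522 ± 34.5 TPM (n = 3), and the next chain, Col4a1, 24.8 ± 2.91. Chains with a mean of at least 1 TPM numbered 31 of 44 in WT gastrocnemius, 35 in diaphragm, 27 in heart and 19 in liver.

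**Figure D1:**
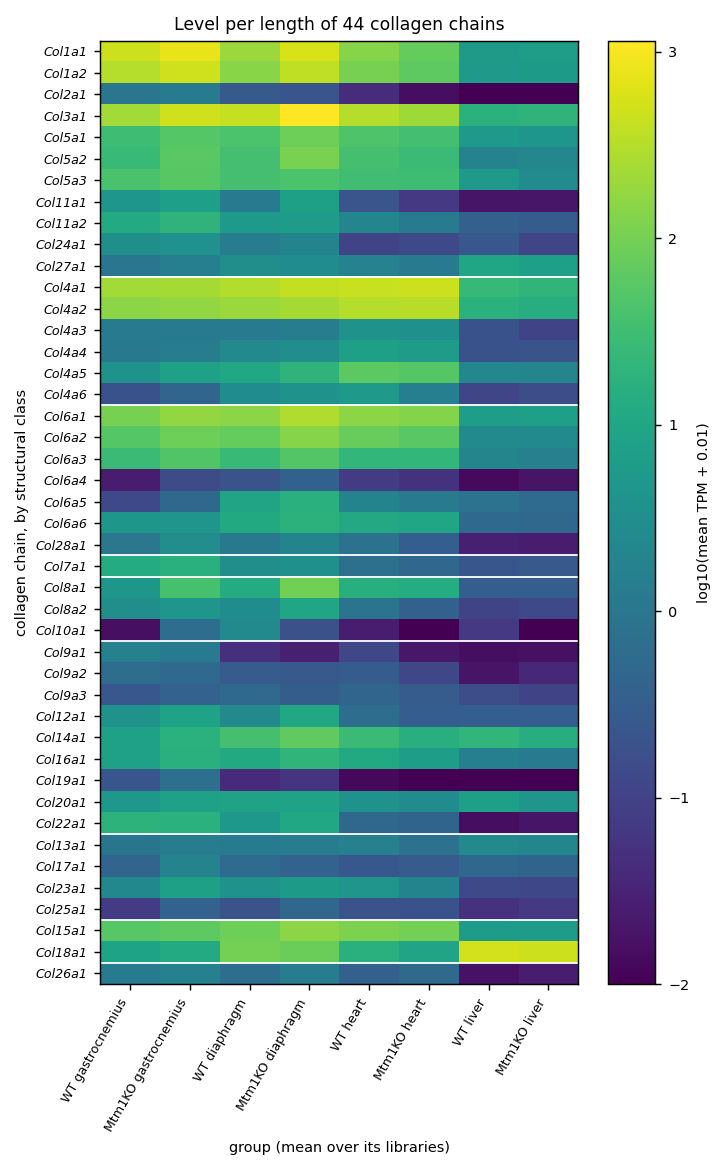
Mean level of each of the 44 collagen chains (vertical) in the 8 groups of libraries (horizontal), coloured by log10 of TPM + 0.01. Col18a1 is the brightest chain in liver, with 522 TPM in WT, and Col1a1, Col1a2, Col3a1, Col4a1 and Col4a2 lead in the muscles and the heart.

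Tissue differences among WT libraries were tested with edgeR's quasi-likelihood test, calling a gene at a Benjamini-Hochberg adjusted p under 0.05 over all genes tested. Heart against gastrocnemius gave 9 chains higher and 19 lower of 43 tested (32.6% of all genes were called higher and 28.7% lower). The higher chains included 5 of type IV. Col4a5, a minor basement membrane chain, was 3.37 ± 0.18 higher on the log2 scale (SE, adjusted p = 1.71e-09) and Col4a6, its neighbour on the X chromosome, 4.32 ± 0.59 (adjusted p = 2.23e-05). Col22a1, a FACIT chain of muscle-tendon junctions, was lower, at -5.94 ± 0.38, as was Col7a1, the anchoring fibril chain, at -4.75 ± 0.25. The fibrillar chain Col24a1 was at -5.64 ± 0.40.

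Heart against diaphragm gave 5 higher and 16 lower chains of 43, with 22.1% and 29.6% of all genes called, and the 5 higher ones were Col4a1, Col4a2, Col4a3, Col4a4 and Col4a5. With a log2 difference over 1 as well, 3 remained (Col4a3, Col4a4 and Col4a5, with 8.83% of all genes). Diaphragm against gastrocnemius gave 10 higher and 13 lower of 43 (30.6% and 23.8% of all genes), with 6 higher chains above a log2 difference of 1 (18.8% of all genes). Col6a5, a type VI chain, was 5.68 ± 0.29 higher in diaphragm (adjusted p = 2.17e-08), and Col14a1 was 1.76 ± 0.33 higher (adjusted p = 0.000488). Col1a1 and Col1a2 were lower in diaphragm, at -1.75 ± 0.48 and -1.61 ± 0.46. The diaphragm value of Col18a1, 3.06 ± 0.52 above gastrocnemius, moved with the hepatocyte markers: the WT library with the fewest of them had 48.0 CPM, the other 3 had 279 to 426. Liver against gastrocnemius gave 6 higher and 32 lower of 43 (37.4% and 42.1% of all genes), the higher ones being Col6a5, Col13a1, Col14a1, Col18a1, Col20a1 and Col27a1. The comparisons that involve gastrocnemius share its 4 WT libraries.

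How closely partner chains of the same molecule varied together differed from pair to pair. For Col1a1 and Col1a2, which together make type I collagen, the correlation of log2 CPM was r = 0.998 over 30 libraries and 0.981 after the group means were removed, for Col4a1 and Col4a2 it was 0.998 and 0.979, and for Col6a1 and Col6a2 0.998 and 0.968. These are descriptions over libraries that share tissues and genotypes. The ratio of Col4a1 to Col4a2 in TPM stayed between 1.38 and 1.63 as group means, and that of Col6a1 to Col6a2 between 1.98 and 3.04. For the type V chains Col5a1 and Col5a2 the values were 0.986 and 0.798, for Col5a3 and Col5a1 0.920 and 0.0883, for Col6a6 and Col6a3 0.878 and 0.703, and for Col4a3 and Col4a4 0.969 and 0.795. For Col8a1 and Col8a2, the type VIII chains of vessel and corneal matrices, they were 0.756 and 0.641, and the ratio of their TPM was 1.77 ± 0.43 (SD, n = 4) in WT and 10.5 ± 4.74 (n = 4) in Mtm1-/y gastrocnemius.

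In gastrocnemius, 10 collagen chains were higher in Mtm1-/y than in WT and none was lower by edgeR at adjusted p under 0.05, of 42 chains tested (23.8% of the chains against 14.1% of all 15456 genes called higher, and 0% against 14.9% called lower). Without adjustment, 13 chains were higher and 1 lower at p under 0.05 (20.9% and 20.7% of all genes). DESeq2 called 1 chain lower, Col22a1. The 42 chains had a median log2 fold change of 0.28, against 0.02 for all genes, and 31 of them were above 0. In 7 chains every Mtm1-/y library lay above every WT library (16.7%, against 14.7% of all genes). Of the members, Col6a4 and Col10a1 did not pass the filter on low counts in this tissue. The structural classes below hold few chains each, and their counts stand beside the same 14.1% and 14.9% of all genes.

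Col8a1, a short network-forming chain, had the largest difference among the called chains. Its level was 10.4, 11.8, 28.6 and 10.9 CPM in WT 1 to 4 and 112, 71.7, 94.2 and 95.5 in Mtm1-/y 1 to 4. The difference was 2.59 ± 0.32 on the log2 scale (SE, edgeR adjusted p = 0.000511), a 6.04-fold rise, and the groups did not overlap although WT 3 lay well above the other WT libraries. Its partner Col8a2 had a log2 difference of 0.17 ± 0.54 (adjusted p = 0.838), which turned to -0.66 (adjusted p = 0.0226) with a covariate for tenocyte markers that is described below for type I collagen.

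Of the 11 fibrillar chains, 3 rose and none fell. Col3a1, the chain of type III collagen in reticular fibres, was at 1077, 811, 1074 and 745 CPM in WT and at 1444, 1452, 1698 and 1533 in Mtm1-/y, a log2 difference of 0.72 ± 0.13 (adjusted p = 0.00297). Col5a2 and Col5a1, the type V chains that regulate fibril diameter, rose by 0.83 ± 0.13 (adjusted p = 0.00162) and 0.44 ± 0.10 (adjusted p = 0.00948). The values of Col5a2 were 105, 90.3, 124 and 79.5 CPM in WT and 181, 153, 187 and 190 in Mtm1-/y. Those of Col5a1 were 117, 92.6, 119 and 96.2 in WT and 141, 131, 145 and 160 in Mtm1-/y. For these 3 chains the lowest Mtm1-/y library was above the highest WT library. The TPM ratio of Col5a1 to Col5a2 was 1.22 ± 0.12 in WT and 0.918 ± 0.044 in Mtm1-/y (SD, n = 4 each). Col5a3, the other type V chain, had a log2 difference of 0.10 ± 0.09 (adjusted p = 0.427).

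Type I collagen did not pass the test. Col1a1 was at 661, 722, 2713 and 1007 CPM in WT and at 670, 917, 1405 and 3452 in Mtm1-/y, a log2 difference of 0.34 with a 95% interval from -0.78 to 1.46 (adjusted p = 0.691). The library WT 3 and the library Mtm1-/y 4 were the highest of their groups and the groups overlapped. They were also the highest in tenocyte markers (Tnmd, Scx, Mkx, Thbs4, Kera, Fmod), which summed to 154, 339, 859 and 292 CPM in WT and to 336, 418, 455 and 1033 in Mtm1-/y, and 1 of the 6 (Scx, 1.59 ± 0.34) was called. With the tenocyte sum as a covariate, chosen after seeing the data, the log2 difference of Col1a1 was -0.65 and that of Col1a2 -0.71 (adjusted p = 0.116 and 0.0539), Col8a1 stayed at 2.33, Col3a1 at 0.69 and Col5a2 at 0.72 with adjusted p of 0.00076, 0.0151 and 0.00786, and Col14a1 and Col6a5 lost their calls.

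Among basement membrane chains, 1 of 6 rose, near the share of all genes called higher in this tissue. Col4a5 was at 12.9, 9.73, 9.77 and 11.1 CPM in WT and at 15.5, 15.8, 14.3 and 20.3 in Mtm1-/y, a log2 difference of 0.60 ± 0.13 (adjusted p = 0.00814) with no overlap of the groups. The major chains Col4a1 and Col4a2 had log2 differences of -0.32 ± 0.17 and -0.24 ± 0.13 (adjusted p = 0.18 and 0.197). Col4a1 was at 921, 571, 685 and 585 CPM in WT and at 436, 535, 665 and 571 in Mtm1-/y, and these groups overlapped. The TPM ratio of Col4a5 to Col4a1 was 0.0178 ± 0.0026 in WT and 0.0339 ± 0.0074 in Mtm1-/y.

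Of the 6 beaded-filament chains tested, Col6a5 and Col28a1 rose. Col6a5 was at 0.668, 0.441, 0.389 and 0.412 CPM in WT and at 0.623, 1.06, 2.15 and 2.18 in Mtm1-/y (log2 difference 1.64 ± 0.42, adjusted p = 0.0159), and Mtm1-/y 1 lay within the WT range. Col28a1, a chain found around Schwann cells of peripheral nerve, was at 2.87, 1.43, 1.17 and 2.51 CPM in WT and at 5.30, 2.72, 5.61 and 4.95 in Mtm1-/y (1.22 ± 0.32, adjusted p = 0.0176). Without WT library 2 its adjusted p was 0.0567. Schwann cell markers summed to 263, 92.8, 80.4 and 233 CPM in WT and to 244, 126, 306 and 338 in Mtm1-/y, with 2 of 6 called higher (Scn7a and Erbb3), and their part in the result was not tested. The chains of the common type VI molecule, Col6a1, Col6a2 and Col6a3, had log2 differences of 0.31, 0.34 and 0.38 (adjusted p = 0.24, 0.121 and 0.11). Col6a6, which can take the place of Col6a3 in the molecule, had -0.48 ± 0.23 (adjusted p = 0.143) and -0.71 without Mtm1-/y 4, where it was called lower (adjusted p = 0.025). It was -0.30 without Mtm1-/y 1. The ratio of Col6a6 to Col6a3 in TPM was 0.167 ± 0.023 in WT and 0.0893 ± 0.016 in Mtm1-/y.

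The FACIT chains Col14a1 and Col19a1 rose, 2 of 9. Col14a1 was at 24.9, 16.9, 31.3 and 15.1 CPM in WT and at 40.3, 38.0, 36.7 and 31.2 in Mtm1-/y (0.73 ± 0.21, adjusted p = 0.0258). Its call was lost when WT library 2 or 4 was left out (adjusted p = 0.0759 and 0.0552), and likewise for library 1 or 2 of Mtm1-/y (0.0624 and 0.0521). Col19a1 was at 0.724, 0.624, 0.629 and 0.476 CPM in WT and at 1.39, 1.85, 1.17 and 1.83 in Mtm1-/y (1.34 ± 0.23, adjusted p = 0.0025), and the groups did not overlap. Col12a1, which marks tendon and loaded connective tissue, had a log2 difference of 0.73 ± 0.55 (adjusted p = 0.348) and 1.64 without WT library 3 (adjusted p = 0.014). Col22a1 had -0.57 ± 0.22 (adjusted p = 0.0731).

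Of the 4 transmembrane chains, Col23a1 rose, with 7.43, 3.56, 3.83 and 6.98 CPM in WT and 19.1, 11.0, 9.66 and 14.7 in Mtm1-/y (1.31 ± 0.29, adjusted p = 0.00759). Col25a1, a transmembrane chain that muscle makes during innervation, had 2.12 ± 0.73 (adjusted p = 0.0542), with 0.584, 0.0735, 0.389 and 0.349 CPM in WT against 4.07, 0.484, 0.781 and 0.862 in Mtm1-/y. Mtm1-/y 1 stood far above the other 3, and without it the log2 difference of Col25a1 was 0.99 (adjusted p = 0.172). Over the other single omissions the difference lay between 1.81 and 2.48, and the adjusted p was 0.034 without Mtm1-/y 2 and 0.0437 without Mtm1-/y 3. The multiplexins Col15a1 and Col18a1, the anchoring chain Col7a1 and Col26a1 had log2 differences of -0.17, 0.12, -0.07 and 0.15 and were not called. Col10a1, the chain of hypertrophic cartilage, gave 0, 0, 1 and 0 counts in WT and 22, 20, 4 and 47 in Mtm1-/y libraries. Chondrocyte markers summed to at most 7.37 CPM in WT and 9.83 in Mtm1-/y. Of that list, Sox9 was called higher in Mtm1-/y. Matn3, Hapln1, Cnmd and Acan were detected in all 8 libraries with overlapping ranges, and Snorc and Matn1 were at 0 in all 8. The part of cartilage cells in the Col10a1 counts was not tested.

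**Figure D2:**
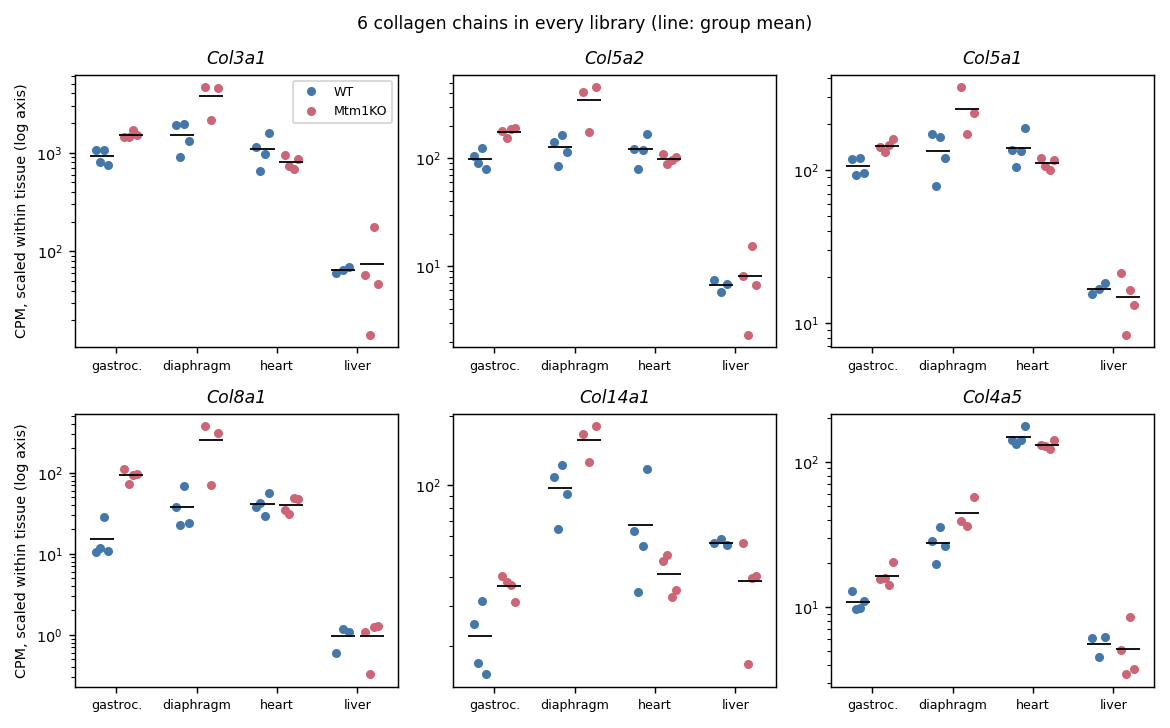
CPM (vertical, log scale) of Col3a1, Col5a2, Col5a1, Col8a1, Col14a1 and Col4a5 in each library by tissue and genotype, with a line at the group mean. In gastrocnemius all Mtm1-/y libraries of Col8a1 (71.7 to 112 CPM) lie above all WT libraries (10.4 to 28.6 CPM), while in heart both genotypes overlap.

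Of the 10 calls, 3 remained when all 30 libraries shared a single estimate of spread (Col6a5, Col8a1 and Col19a1), with Col6a4 and Col25a1 called in addition. The other 7, Col3a1, Col4a5, Col5a1, Col5a2, Col14a1, Col23a1 and Col28a1, had adjusted p between 0.0613 (Col23a1) and 0.29 (Col3a1), with log2 differences of 0.71 for Col3a1 and 0.82 for Col5a2. With the study's added threshold of an absolute log2 fold change over 1, 5 of the 10 remained (4.84% of all genes passed it upwards): Col6a5, Col8a1, Col19a1, Col23a1 and Col28a1.

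Cell type markers also differed between the genotypes in gastrocnemius. Their counts stand beside the shares of all genes called higher and lower in this tissue, given above for the chains. Fibroblast markers were called higher in 6 of 7 (Mfap5 1.42, Lum 0.98, Dpt 0.45, Clec3b 0.42), and their sum was 537 to 847 CPM in WT and 750 to 1061 in Mtm1-/y. Macrophage markers were higher in 6 of 6 (29.0 to 48.9 CPM against 72.9 to 89.5, with Mpeg1 at 2.63 and Cd68 at 2.33) and white adipocyte markers in 5 of 7 (47.8 to 131 CPM against 103 to 198, with Adipoq at 1.50). Skeletal fibre markers were lower in 4 of 4 (154843 to 184832 CPM against 91467 to 100912), satellite cell markers in 2 of 4 (Calcr -3.61, Pax7 -1.05) and endothelial markers in 3 of 7 (Tie1 -0.52, Cdh5 -0.55, Tek -0.44). Of the mesothelial list only Msln was tested (4.57), with sums of 0.110 to 0.362 CPM in WT and 2.99 to 10.8 in Mtm1-/y and Lrrn4 and Upk1b at 0 in every WT library. In the remaining lists Sox9 (chondrocyte, 1.1), Runx2 (osteoblast, 0.84), Ngfr (hepatic stellate, 0.80) and Tnni3 (cardiomyocyte, 0.82) were higher and Alpl (osteoblast, -0.96) was lower, and no hepatocyte marker was called (0 of 5). In whole-muscle RNA, fewer cells of a type and less RNA per cell cannot be told apart. The part of these cell types in the collagen differences was not tested.

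Genes that act on collagen after it is transcribed were read against the 14.1% of all genes called higher and 14.9% called lower in gastrocnemius. Of 15 enzymes that modify proline and lysine in the chains, 5 rose and 2 fell. P4ha3, a prolyl 4-hydroxylase subunit, rose by 3.30 ± 0.63 (adjusted p = 0.00388) and P4ha2, a related subunit, fell by 0.64 ± 0.07 (adjusted p = 0.00037). Plod2, the lysyl hydroxylase of crosslink sites, was 0.81 ± 0.15 higher, and P3h2, a prolyl 3-hydroxylase, 0.97 ± 0.24. Of 13 chaperones and secretion factors, 1 rose (Fkbp10, a procollagen chaperone, 0.59) and 3 fell (Mia2 -0.41, Sec23a -0.28 and Mia3 -0.21, which load or coat transport carriers). Of 8 propeptide-processing genes tested, Pcolce, the enhancer of C-propeptide removal, rose (0.61) and Adamts14, an N-propeptidase, fell (-0.35).

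The lists of genes that act in the matrix are small, and their counts stand beside the same background. Of the 5 lysyl oxidases, which crosslink fibrils, Loxl1 (1.04 ± 0.12, adjusted p = 0.000341) and Lox (1.34 ± 0.38, adjusted p = 0.0268) rose. Of 10 fibril-associated proteoglycans, Lum (0.98), Aspn (1.15), Podn (0.76) and Bgn (1.25) rose and none fell. Of 8 breakdown genes tested, Timp1, an inhibitor of matrix metalloproteinases (3.35), Mmp14, a membrane collagenase (0.85), Fap (0.58) and Ctsk (0.84), both proteases, rose. Of 9 receptors tested, Lair1, an inhibitory receptor of leukocytes (2.21), the integrin subunit Itgb1 (0.49) and the endocytic receptor Mrc2 (0.88) rose and Itga1 (-0.47), the partner of Itgb1 in a collagen-binding integrin, fell. Of 12 basement membrane partners none was called, and Hspg2 and Sparcl1, the most abundant, had log2 differences of -0.01 and -0.11 (adjusted p = 0.916 and 0.419). In diaphragm, heart and liver no gene of these pathway lists was called, where at most 0.0119% of all genes were called in either direction. Lox was at 31.1 ± 9.77 CPM in WT (SD, n = 4) and 126 ± 75.0 in Mtm1-/y diaphragm (n = 3), and P4ha3 at 0.318 ± 0.157 and 2.71 ± 1.61, with log2 differences of 2.02 and 3.11 (edgeR adjusted p = 0.286 and 0.265).

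In the diaphragm, most collagen chains had higher means in Mtm1-/y, and none passed the adjusted threshold. By edgeR, 0 of 40 chains tested were called in either direction (of all 16796 genes, 0% passed upwards and 0.0119% downwards). Mtm1 itself, at -2.26 ± 0.17 on the log2 scale, passed with an adjusted p of 0.0269. Before adjustment, 18 chains had p under 0.05 and were higher (45% against 6.58% of all genes) and 1, Col9a3, was lower (4.17% of all genes). In 11 chains every Mtm1-/y library lay above every WT library (27.5%, against 5.4% of all genes). The median log2 difference of the chains was 0.65, against -0.01 for all genes, and 33 of 40 were above 0. Replicate spread was wider than in gastrocnemius, with a common biological coefficient of variation of 0.394 against 0.171.

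Col8a1 again had the largest log2 difference, 2.72 ± 0.63 (adjusted p = 0.279). Its values were 37.6, 22.5, 67.9 and 24.2 CPM in WT 1 to 4 and 375, 70.2 and 309 in Mtm1-/y 1, 2 and 4. Mtm1-/y 2 was only just above WT 3. Col3a1 was at 1911, 906, 1967 and 1318 CPM in WT and at 4659, 2139 and 4530 in Mtm1-/y (1.31 ± 0.38, adjusted p = 0.316), and Col5a2 at 142, 85.2, 166 and 115 against 410, 177 and 460 (1.46 ± 0.36, adjusted p = 0.28). Col1a1 was at 672, 239, 616 and 441 CPM in WT and at 1368, 866 and 1501 in Mtm1-/y (1.34 ± 0.38, adjusted p = 0.307). In each of these chains the groups did not overlap and Mtm1-/y 2, the library with the highest hepatocyte sum, was the lowest of its group.

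Without Mtm1-/y library 2, edgeR called Col8a1 (3.17, adjusted p = 0.0479) and Col5a2 (1.78, adjusted p = 0.0479) higher. DESeq2 on all 7 libraries called 7 chains higher, Col1a1, Col1a2, Col3a1, Col5a2, Col8a1, Col11a1 and Col12a1, and edgeR over all 30 libraries called Col5a2 and Col8a1. With the hepatocyte marker sum as a covariate, chosen after seeing the data, none was called, and Col8a1 was at 2.32 ± 0.38 (adjusted p = 0.0747). Tenocyte markers summed to 103, 76.4, 273 and 166 CPM in WT and to 757, 272 and 893 in Mtm1-/y diaphragm, and fibroblast markers to 869 to 1524 and 1342 to 2350. Their part in the result was not tested.

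Col18a1 varied with the hepatocyte markers. It was at 426, 279, 48.0 and 313 CPM in WT and at 78.5, 535 and 43.6 in Mtm1-/y diaphragm, highest in the libraries with the highest hepatocyte sums, and its log2 difference was -0.28 ± 0.99. Col10a1 was at 12.5 CPM (529 counts) in WT library 2 and at most 0.303 CPM in the other 6 diaphragm libraries. The chondrocyte sum in that library was 12.7 CPM, the highest of the 7.

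**Figure D3:**
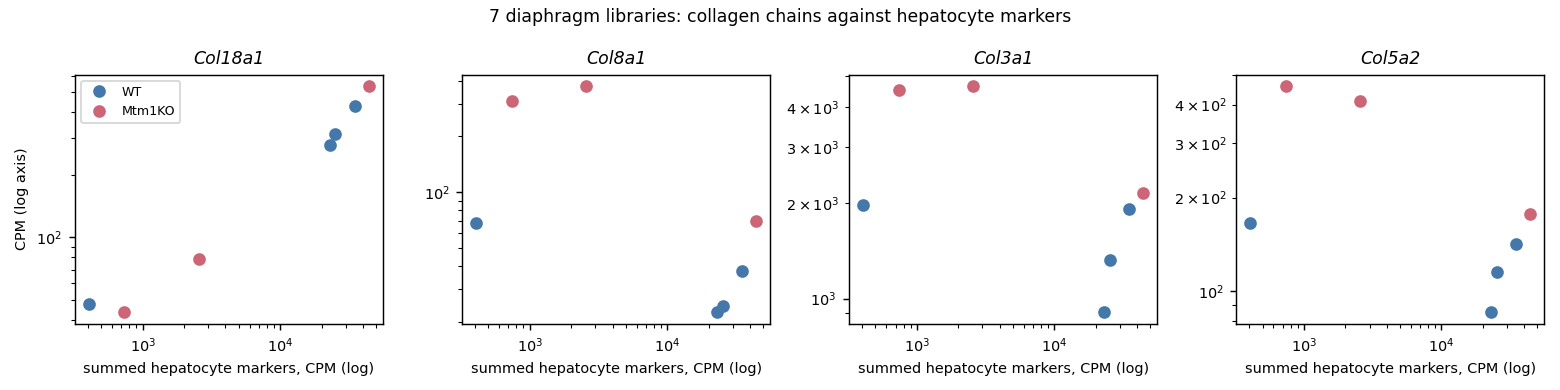
CPM of Col18a1, Col8a1, Col3a1 and Col5a2 (vertical, log scale) against the summed CPM of hepatocyte markers (horizontal, log scale) in the 7 diaphragm libraries. Col18a1 is at 43.6 to 78.5 CPM in the 3 libraries with sums of 407 to 2549 CPM and at 279 to 535 CPM in the 4 others.

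In the heart, the collagen means leaned the other way and no chain was called. By edgeR 0 of 37 chains tested passed the adjusted threshold (of all 15238 genes, 0% passed upwards and 0.00656% downwards), and DESeq2 also called 0. At p under 0.05 without adjustment, 0 chains were higher (against 3.05% of all genes) and 11 lower (29.7%, against 5.83%). The median log2 difference of the chains was -0.40, against -0.00 for all genes, and 30 of 37 were below 0. In 2 chains, Col11a2 and Col9a3, every Mtm1-/y library lay below every WT library (5.41%, against 2.16%).

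Col1a1 was at 287, 174, 252 and 532 CPM in WT hearts and at 182, 191, 161 and 184 in Mtm1-/y hearts (-0.79 ± 0.29, adjusted p = 0.546). Col3a1 was at 1134, 660, 963 and 1590 CPM against 957, 738, 692 and 862 (-0.42 ± 0.24, adjusted p = 0.555). In both chains WT 4 was the highest library and the groups overlapped, and without it the differences were -0.40 and -0.17. Larger negative values were found for Col4a6 (-1.76 ± 0.70, and -0.89 without WT 4) and for Col11a1, a fibrillar chain of cartilage and tendon (-1.73 ± 0.47, and -1.56 without WT 4), both with adjusted p = 0.546. Col8a1 was at 38.1, 42.0, 29.3 and 56.0 CPM in WT and at 34.9, 30.7, 48.5 and 47.7 in Mtm1-/y hearts (-0.03 ± 0.21). Col4a1, the leading chain in heart, had 0.21 ± 0.17 (adjusted p = 0.619).

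Means of marker genes of several cell types lay apart between the heart groups in the same libraries, none of them called after adjustment. Other lists were of mixed sign. Among endothelial markers, Kdr had means of 175 CPM in WT and 263 in Mtm1-/y, and Vwf of 226 and 109. Among macrophage markers, Adgre1 was at a log2 difference of 0.28 and C1qa at -0.38. Fibroblast markers were at log2 differences from -0.28 (Pdgfra) to -0.68 (Pi16), below 0 for 7 of 7, with sums of 1352, 1051, 1731 and 2227 CPM in WT and 1149, 1305, 1113 and 1118 in Mtm1-/y. White adipocyte markers were at -2.21 (Retn) to -3.37 (Lep) for 6 of 7 and at -0.33 for Lipe, and summed to 91.2 to 210 CPM in WT and 54.5 to 85.4 in Mtm1-/y. Mesothelial markers summed to 146, 66.4, 102 and 354 CPM in WT and 74.8, 170, 41.2 and 103 in Mtm1-/y. Hepatocyte markers lay higher, at 1.98 (Ttr) to 2.96 (Apob), with sums of 34.9, 1.78, 3.67 and 4.53 CPM in WT and 129, 61.6, 39.1 and 47.1 in Mtm1-/y. The atrial genes Myl7 and Nppa ranged from 45.6 to 4972 CPM and from 662 to 19117 in WT and from 1.29 to 1276 and from 148 to 3097 in Mtm1-/y, and their differences were -2.35 ± 1.98 and -2.58 ± 1.27. The part of these cell types in the collagen values of the heart was not tested.

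In the liver, 0 of 31 chains tested were called by edgeR (0% of all 14305 genes in either direction). Mtm1 itself, at -1.60 ± 0.23 on the log2 scale, was not called in liver either (edgeR adjusted p = 0.365). A count of 0 in this tissue therefore does not show that the chains were unchanged. At p under 0.05 without adjustment, 0 were higher (against 1.69% of all genes) and 1 lower (3.23%, against 2.54%), Col20a1, a FACIT chain, at -0.70 ± 0.15 (adjusted p = 0.802), and DESeq2 called it lower. Each Mtm1-/y library of Col20a1 was below each WT library (1 of 31 chains, against 3.47% of all genes). Col18a1, the dominant chain of this tissue, was at 1348, 1472 and 1397 CPM in WT and at 1318, 1403, 1208 and 1217 in Mtm1-/y. Its log2 difference was -0.13 ± 0.10 (adjusted p = 0.969), with a 95% interval from -0.33 to 0.08. Col3a1 was at 59.8, 64.7 and 68.8 CPM in WT and at 57.0, 14.2, 178 and 46.4 in Mtm1-/y. Libraries 2 and 3 of Mtm1-/y liver were the lowest and highest of all 7, so that its log2 difference of 0.20 ± 0.66 became 0.54 without library 2 and -0.72 without library 3. Hepatic stellate markers summed to 79.2 to 89.7 CPM in WT and 44.9 to 87.2 in Mtm1-/y livers.

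**Figure D4:**
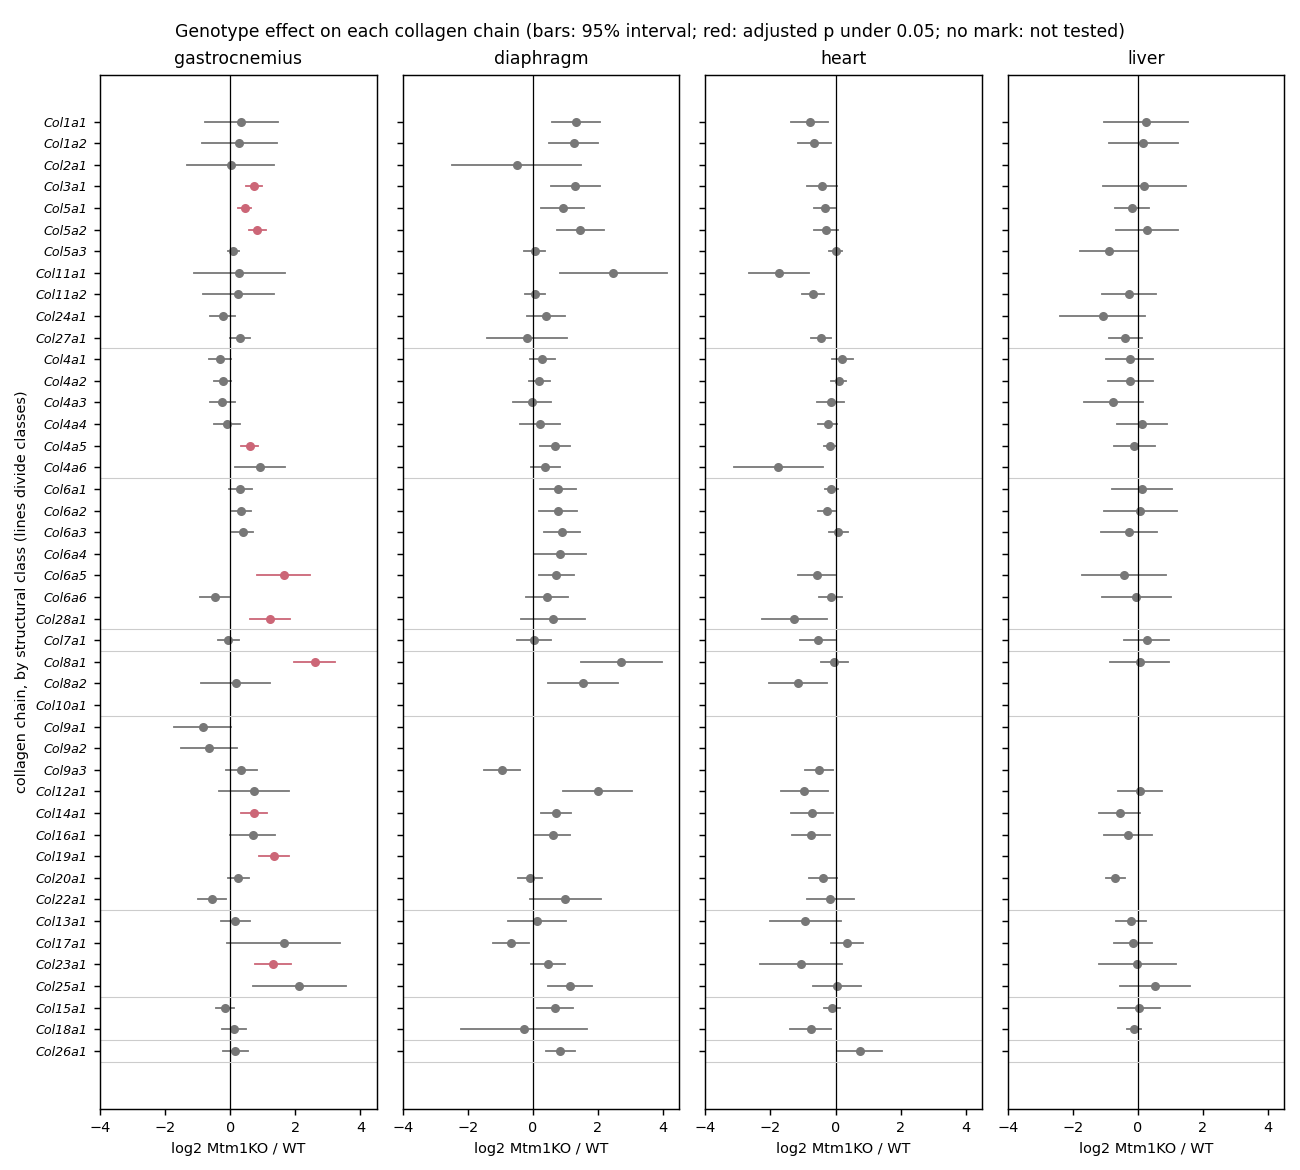
Log2 ratio of Mtm1-/y to WT (horizontal) with its 95% interval for the 44 collagen chains (vertical) in 4 tissues, chains with edgeR adjusted p under 0.05 in red and chains that did not pass the filter without a mark. The 10 called chains are all in gastrocnemius and to the right of 0, and in heart 30 of 37 estimates are to the left of 0.

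Whether the effect of genotype differed between tissues was tested with an interaction term, computed as the log2 effect in the first tissue minus that in the second. Between heart and gastrocnemius, 10 of 43 chains had a lower effect in heart (23.3%, against 9.89% of all genes) and none a higher one (against 9.94% of all genes). Before adjustment 19 were lower and 1 higher at p under 0.05 (18% and 16.7% of all genes). The largest was Col8a1, at -2.61 with a 95% interval from -3.42 to -1.80 (edgeR adjusted p = 0.000963). Col5a2 was at -1.11 ± 0.25 (adjusted p = 0.00661), Col4a5 at -0.76 ± 0.17 (adjusted p = 0.00672), Col3a1 at -1.13 ± 0.29 (adjusted p = 0.0139) and Col5a1 at -0.76 ± 0.20 (adjusted p = 0.0148). Col6a5 (-2.19), Col28a1 (-2.46) and Col14a1 (-1.43) were called as well.

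Col23a1 (-2.36 ± 0.76, adjusted p = 0.0395) and Col27a1, a fibrillar chain of cartilage (-0.71 ± 0.23, adjusted p = 0.0398), were the weakest calls, the first lost in 9 and the second in 10 of 16 repeats that left out 1 library, with Col23a1 at -1.39 without WT heart 4. Col14a1 lost its call in 5 of 16. These calls use the gastrocnemius libraries of the comparison above and are not independent of it. With all 30 libraries in the fit 4 remained, Col8a1, Col14a1, Col23a1 and Col28a1. Col1a1 (-1.11 ± 0.71, adjusted p = 0.286) and Col4a1 (0.55 ± 0.25, adjusted p = 0.138) were not called.

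Between heart and diaphragm, 0 of 41 chains were called by edgeR (of all genes, 0.00573% passed upwards and 0% downwards). Before adjustment, 20 had p under 0.05 and were lower in heart (48.8%, against 6.73% of all genes) and 1 higher (2.44%, against 3.87%). DESeq2 called 8 lower, and edgeR called 7 without Mtm1-/y diaphragm 2: Col1a1, Col1a2, Col3a1, Col5a2, Col8a1, Col11a1 and Col12a1. Between gastrocnemius and diaphragm, 0 of 44 were called by edgeR (of all genes, 0.166% passed upwards and 0.114% downwards). With p under 0.05 before adjustment 2 were higher (against 7.02% of all genes) and 5 lower (against 5.83%), and DESeq2 called 1 higher, Col10a1. The interval of the difference for Col8a1 reached from -1.53 to 1.28, a width that leaves effects of unequal size in these muscles possible.

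Between liver and gastrocnemius, 3 of 44 chains had a lower effect in liver (6.82%, against 2.71% of all genes) and none a higher one (against 3.63%). They were Col8a1 (-2.48 ± 0.60, adjusted p = 0.0261), Col20a1 (-0.92 ± 0.24, adjusted p = 0.0361) and Col10a1. For Col10a1 the fitted value, -10.19, is no measure of size, since Mtm1-/y liver and most WT gastrocnemius libraries were at 0 counts. Col10a1 had failed the filter on low counts in all 4 genotype comparisons, and its call is not read as a difference between tissues. Col8a1 lost its call in 3 and Col20a1 in 9 of 15 repeats that left out 1 library. Col10a1 kept its call in 12 of these repeats and did not pass the filter in the others. Without Mtm1-/y liver 3 the number of chains called was 6. It was 1 without WT gastrocnemius 2, Mtm1-/y gastrocnemius 1, Mtm1-/y gastrocnemius 2 or WT liver 2.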

How the data were processed

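Raw read counts per gene were deposited in the count table (mm10), which the authors made from single-end reads of 50 bases of poly(A) RNA (TruSeq Stranded mRNA) with cutadapt 1.10, STAR 2.5.3a and HTSeq 0.6.1p1 (bcl2fastq 2.17.1.14 is also named in the submitters' notes), keeping uniquely aligned, unambiguously assigned reads. Reads that could not be assigned to a single gene are therefore lost. The strand setting of the counting is not given in the sources used here. Whether reads in overlaps of genes on opposite strands were lost is therefore not known. The methods give 3 or 4 mice per group and do not say whether the tissues came from the same mice, and comparisons between tissues treat libraries as independent. P-values measure the spread between these libraries.

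Counts of 24873817 to 44289343 per library were analysed in R 4.3.3 with edgeR 4.0.16 (TMM scaling, filterByExpr with a minimum count of 10, quasi-likelihood test, adjusted p under 0.05 over all genes passing the filter), within each tissue for genotype, over a pair of tissues for interactions and over the 15 WT libraries for tissues. TPM used exon lengths of GENCODE M21. The procedure was tested on simulated counts that had the same spread in every tissue, with known changes only in well-counted genes. That test does not cover the wider spread of the diaphragm or chains with few counts. Alternatives were DESeq2 1.42.0, limma 3.58.1 (voom), DESeq2 size factors, no filter, all 30 libraries, a replicate block, an absolute log2 fold change over 1, leaving out each library, and the tenocyte and hepatocyte covariates. Figures used Python 3.11.15 with matplotlib 3.10.9.

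The members and lists were chosen with earlier results of these data known. Chains named with values were those called in a genotype comparison or interaction and the leading chain by TPM of each structural class. From other lists up to 4 genes called in gastrocnemius, or otherwise the 2 most abundant, were named, and all other genes and chains named, such as Col1a1, Col1a2, Col4a2, Col5a3, Col6a2, Col6a3, Col6a6, Col8a2, Col11a1, Col12a1, Col22a1 and Col25a1, were chosen after their values were seen. Libraries with the same replicate number were not treated as pairs, and whether they share a mouse is not known.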

Additional observations from a re-analysis of the deposited data

Results flagged for a closer look

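Of 104 groups of 4 libraries examined for a library far from the others, 9 were marked. For normally distributed values the rule marks about 1 in 20 groups by chance. A group with a single count in 1 library and 0 in the others is always marked, so the 9 cannot be read against that rate. Col8a1 was at 28.6 CPM in WT gastrocnemius 3 (other WT libraries 10.4 to 11.8). Col26a1 was at 4.56 CPM in WT gastrocnemius 1 (3.49 to 3.65). Col10a1 was at 12.5 CPM in WT diaphragm 2 (0 to 0.0617) and at 0.03 CPM, a single count, in WT gastrocnemius 3, and Col19a1 was at 0.0317 CPM, also a single count, in WT heart 2, the others being at 0. Col23a1 was at 20.9 CPM in WT heart 4 (3.43 to 5.08) and at 8.11 CPM in Mtm1-/y heart 2 (2.18 to 3.06). Col6a5 was at 5.74 CPM in Mtm1-/y liver 3 (0.723 to 1.20), and Col27a1 at 42.7 CPM in Mtm1-/y liver 4 (34.2 to 35.0).

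An interaction test on the genotype effect called 12 chains. Of these, Col10a1 had failed the filter on low counts in all 4 genotype comparisons, so its call is not read as a difference between tissues. In heart minus gastrocnemius the log2 values were -2.61 for Col8a1, -2.46 for Col28a1, -2.36 for Col23a1, -2.19 for Col6a5, -1.43 for Col14a1, -1.13 for Col3a1, -1.11 for Col5a2, -0.76 for Col4a5, -0.76 for Col5a1 and -0.71 for Col27a1. In liver minus gastrocnemius they were -2.48 for Col8a1, -0.92 for Col20a1 and -10.19 for Col10a1, the last a fitted value against groups at 0 counts.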

How the results depend on the processing

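The count of chains higher in Mtm1-/y gastrocnemius was 5 with the fold threshold and 5 with all 30 libraries, and the count lower was 1 by DESeq2, 1 with the replicate block and 3 with the tenocyte covariate (Col8a2, Col11a1, Col22a1). Chains higher in diaphragm numbered 7 by DESeq2 and 2 with all 30 libraries, and DESeq2 called 1 lower in liver. For the interactions, all 30 libraries gave 4 lower chains in heart minus gastrocnemius and 1 in liver minus gastrocnemius, the block gave 1 in the latter, and DESeq2 gave 8 lower in heart minus diaphragm and 1 higher in gastrocnemius minus diaphragm. With the fold threshold 6 chains were higher in WT diaphragm than gastrocnemius and 3 in WT heart than diaphragm. The causes were not tested.

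Leaving out each library gave 10 to 14 higher and 0 to 2 lower chains in gastrocnemius (2 without Mtm1-/y 4), 0 to 2 higher in diaphragm, 7 to 14 lower in heart minus gastrocnemius, 0 to 7 in heart minus diaphragm, 1 to 6 in liver minus gastrocnemius, and in WT tissues 8 to 10 higher and 11 to 14 lower (diaphragm against gastrocnemius), 4 to 5 and 13 to 18 (heart against diaphragm), 6 to 9 and 18 to 19 (heart against gastrocnemius) and 5 to 6 and 32 to 32 (liver against gastrocnemius).

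Signs changed with the tenocyte covariate in gastrocnemius for Col1a1 (-0.65), Col1a2 (-0.71), Col7a1 (0.093) and Col8a2 (-0.66, adjusted p = 0.0226), with the replicate block for Col3a1 in liver (-0.25) and Col8a1 in gastrocnemius minus diaphragm (0.15), and with voom for Col8a1 in heart (0.23). Leaving out a library also changed signs in gastrocnemius for Col1a1 (-0.35 to 1.01), Col1a2 (-0.40 to 1.05), Col7a1 (-0.21 to 0.046), Col8a2 (-0.41 to 0.92), Col18a1 (-0.051 to 0.24) and Col26a1 (-0.037 to 0.27), in diaphragm for Col18a1 (-2.13 to 0.20), in heart for Col8a1 (-0.17 to 0.15), in liver for Col3a1 (-0.72 to 0.54) and in gastrocnemius minus diaphragm for Col8a1 (-0.57 to 0.35). None of these values was called with the settings of the report. Of the other values of single chains, 419 kept their sign and their side of the threshold under other settings, 35 lost a call and 14 gained one. When a library was left out, 582 kept both, 41 lost a call and 6 gained one.

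Between genotypes of a tissue, which are different mice, deviations of libraries with the same number correlated from -0.69 to 0.49 (median -0.00197, 14 pairs). Between tissues of a genotype, which could share a mouse, they correlated from -0.14 to 0.26 (median 0.0612, 42 pairs), against -0.21 to 0.29 for other numbers (median -0.0204, 126 pairs). Low correlations between tissues cannot exclude a shared mouse, and the replicate block tests no known pairing. It ended the calls of Col6a5 in gastrocnemius (adjusted p = 0.0528), of Col14a1 and Col27a1 in heart minus gastrocnemius, and of Col10a1 and Col20a1 in liver minus gastrocnemius. With 3 or 4 mice per group, low chains such as Col10a1 and Col19a1 rest on few counts, and the diaphragm comparison on libraries with unequal hepatocyte marker sums.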
